A study of Mus musculus with 12 samples.

Results

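The transcripts followed here are those of the amino acid response and of endoplasmic reticulum (ER) folding in 3T3-L1 pre-adipocytes. They were chosen by name from a list of 39 entries. Of these, 38 are mouse genes and 1 names no gene. All 38 genes had a probe that passed the filter on dim signal, out of 13831 genes tested. The list was split by rule into an ATF4 arm of 9 genes (Ddit3, Trib3, Chac1, Asns and the transfer RNA synthetase genes Aars, Gars, Nars, Sars and Wars) and a group of 13 ER chaperones and folding enzymes (Hspa5, Hsp90b1, Pdia3, Pdia4, Pdia6, Calr, Canx, Dnajb9, Dnajc3, Sdf2l1, Creld2, Manf and Hyou1). The other genes were Atf4, Atf5, Psat1, Phgdh, Psph, Shmt2, Mthfd2, Sesn2, Ppp1r15a, Slc7a5, Slc3a2, Pck2, Nupr1, Xbp1, Herpud1 and Edem1.

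The RNA came from 3T3-L1 cells, a mouse embryonic fibroblast line that can become adipocytes. These cells either shared medium with the mouse macrophage line RAW264.7, held in a porous insert above them, or were grown alone. Each of 12 arrays compared co-cultured cells (Cy5) with time matched cells alone under the same treatment (Cy3). There was 1 array for each of 4 treatments at 6, 24 and 48 h: cortisol (C, 100 µM), serotonin (S, 100 µM), both hormones (CS) and no hormone (NT). The hormones were dissolved in DMSO, and the medium was renewed after 24 h. The dyes were never exchanged, so an effect of dye on a single probe and an effect of co-culture cannot be told apart. The arrays of 1 time shared 1 slide, which means that time and slide cannot be told apart. No label says that any culture was repeated, and the arrays of different treatments served as each other's replicates. In bulk RNA, fewer cells of a type and less RNA per cell cannot be told apart.

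ATF4 is a transcription factor whose protein is made when stress kinases slow general translation, either because proteins misfold in the ER or because amino acids run short. It turns on genes for amino acid synthesis, uptake and loading onto transfer RNA, and also Ddit3 (CHOP), Trib3 and Chac1. Misfolded ER proteins are also sensed by ATF6 and by IRE1, which activates XBP1. Those factors turn on chaperones such as BiP (Hspa5) and GRP94 (Hsp90b1). The amino acid branch and the chaperone branch thus share a trigger in the ER, while lack of amino acids alone acts through ATF4.

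The array check was as follows. Between 19912 and 22770 probes in Cy5, and between 18395 and 21335 in Cy3, were well above background. Every one of the 38 genes apart from Hyou1 was well above background in both dyes on all 12 arrays. The glucocorticoid-induced gene Zbtb16 went against the hormone label in the cells alone of 3 arrays. In co-cultured cells its log2 level was 10.70 (C), 8.94 (S), 10.75 (CS) and 8.26 (NT) at 6 h, high with cortisol and low without, as labelled. In cells alone it was 11.26 (C), 10.66 (S), 11.30 (CS) and 8.49 (NT) at 6 h. At 24 h it was 11.35 (C), 10.57 (S), 9.11 (CS) and 8.71 (NT) in cells alone. The array labelled S was therefore high in cells alone at 6 h and 24 h, and that labelled CS was low at 24 h. At 48 h both cultures followed the labels. Counts are given below with and without these 3 arrays. Of 21 macrophage markers, 20 had a probe, and 11 of these were well above background in Cy5 on every array and 8 in Cy3. Ptprc, Fcgr1, Fcgr3, Laptm5 and Spi1 were well above background on at most 1 array in either dye. The summed level of the 20 probes was 16559 to 19857 in co-cultured cells and 8782 to 12068 in cells alone at 6 h. It was 13135 to 17487 against 9053 to 14216 at 24 h, and 13566 to 20421 against 8783 to 13183 at 48 h. Of 10 fibroblast and pre-adipocyte markers, 9 were well above background in both dyes on all 12 arrays. Some markers were themselves called. Of 15 macrophage markers tested, 7 were called higher at 6 h, 2 at 24 h and 6 at 48 h, led at 48 h by Clec4d (log2 1.84), Ctss (1.53) and Csf1r (1.11), and Cd53 (-0.68) was called lower at 48 h. Of the fibroblast markers, Col3a1 (-1.32) and Pdgfra (-1.07) were called lower and Fn1 (0.79) higher at 48 h, and Col3a1 (-0.79) was lower at 24 h. The part of these changes in the results below was not tested.

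Promoter sequences are shown because the list joins 2 sets of genes that are known to be read through different DNA elements. RefSeq promoters (GRCm38.p6) were found for 33 of the 38 genes. The 250 bases before each start were searched on both strands for the amino acid response core TGATGNAA, for the ER stress response element, which is CCAAT and CCACG with 9 bases of any kind between them, and for the unfolded protein response element TGACGTGG. The ER stress response element stood in 7 of the 11 chaperone promoters matched (Hspa5, Hsp90b1, Pdia6, Calr, Canx, Dnajc3 and Creld2) and in 0 of the 7 promoters matched in the ATF4 arm. It was present in 0.113% of all 32851 promoters. The amino acid response core stood in 4 of 7 promoters of the ATF4 arm (Asns, Chac1, Aars and Gars) and in 0 of 11 chaperone promoters, and it also stood in Nupr1, Pck2 and Herpud1. It was present in 3.45% of all promoters. The unfolded protein response element stood in none of the 33 and in 0.563% of all. No motif overlapped another. A match describes the letters only. The promoters of 2 genes of the amino acid branch and of 3 chaperones that differed in direction at 48 h follow, 5′ to 3′, with the matched element in capitals.
Chac1 (chr2:119350992-119351241, plus strand): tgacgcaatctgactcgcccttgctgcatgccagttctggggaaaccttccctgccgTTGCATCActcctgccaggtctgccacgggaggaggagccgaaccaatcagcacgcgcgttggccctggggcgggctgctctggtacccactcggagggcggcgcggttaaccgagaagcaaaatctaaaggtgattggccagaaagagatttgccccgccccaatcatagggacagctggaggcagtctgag
Asns (chr6:7693210-7693459, minus strand): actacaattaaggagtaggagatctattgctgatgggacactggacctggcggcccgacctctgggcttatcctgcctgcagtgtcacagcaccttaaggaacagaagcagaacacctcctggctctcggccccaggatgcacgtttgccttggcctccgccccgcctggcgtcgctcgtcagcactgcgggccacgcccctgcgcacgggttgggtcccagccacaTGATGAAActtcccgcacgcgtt
Hspa5 (chr2:34771840-34772089, plus strand): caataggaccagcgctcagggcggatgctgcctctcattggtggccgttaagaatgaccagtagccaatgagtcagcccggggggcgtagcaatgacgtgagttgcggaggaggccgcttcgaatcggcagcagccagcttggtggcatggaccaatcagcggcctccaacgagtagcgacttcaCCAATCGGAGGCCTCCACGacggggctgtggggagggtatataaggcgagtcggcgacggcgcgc
Hsp90b1 (chr10:86705445-86705694, minus strand): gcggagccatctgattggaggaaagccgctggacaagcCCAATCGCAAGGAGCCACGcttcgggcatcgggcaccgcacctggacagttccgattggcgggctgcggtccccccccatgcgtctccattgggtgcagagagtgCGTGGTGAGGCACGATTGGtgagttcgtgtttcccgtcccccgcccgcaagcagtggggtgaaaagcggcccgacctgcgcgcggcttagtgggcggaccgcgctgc
Dnajc3 (chr14:118937682-118937931, plus strand): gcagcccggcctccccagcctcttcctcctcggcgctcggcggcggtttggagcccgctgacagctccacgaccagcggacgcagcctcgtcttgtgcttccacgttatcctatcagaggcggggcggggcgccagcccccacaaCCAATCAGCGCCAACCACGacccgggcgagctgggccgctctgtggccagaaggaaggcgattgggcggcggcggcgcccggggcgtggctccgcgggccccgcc
The core began 193 bases before the start in Chac1, on the reverse strand, and 23 bases before it in Asns. The ER stress response element began 65 bases before the start in Hspa5 and 105 bases before it in Dnajc3. Hsp90b1 held 2 copies, at 212 bases on the forward and at 107 bases on the reverse strand.

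The first question was how co-culture changed these transcripts at each time. By the rule below, 1 of them moved at 6 h and 0 at 24 h, and genes of both branches moved at 48 h, in both directions. Calls came from the limma fit over all genes and needed 2 things, a p under 0.05 after Benjamini-Hochberg adjustment and a fold of 1.5 or more. At 6 h, 0 of 38 genes were called higher (background 4.4% of all genes tested) and 1 lower (background 5.26%), which was Aars. At 24 h, 0 were called higher (background 4.69%) and 0 lower (background 3.7%). At 48 h, 6 of 38, or 15.8%, were called higher (background 14.6%): Ppp1r15a and the chaperones Hspa5, Hsp90b1, Pdia4, Pdia6 and Sdf2l1. At the same time 11 of 38, or 28.9%, were called lower (background 16.9%): Ddit3, Chac1, Phgdh, Psph, Shmt2, Mthfd2, Nars, Wars, Dnajb9, Dnajc3 and Herpud1. The share called higher was near its background, and the share called lower lay above it. The members were chosen with earlier results of these data known, so these shares describe the list and do not test it. Without the 3 arrays that went against their hormone label, 5 genes were called higher and 10 lower at 48 h, 1 was called at 6 h and 1 at 24 h, which was Slc7a5 (log2 -0.60, limma adjusted p = 0.011). In that fit Pdia6 and Phgdh had too few values left to be tested, and the share over all genes was not counted. Small changes were common at the early times. With no fold threshold, 23 of 38 genes passed at 6 h (background 53.5%), 25 at 24 h (background 51.1%) and 32 at 48 h (background 73.7%).

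The early ratios rested on the correction for signal strength. With median centring and no loess, 22 members were called higher and 0 lower at 6 h, and 25 higher and 0 lower at 24 h. Over all genes, that setting called 3488 higher (25.2%) and 227 lower (1.64%) at 6 h, and 4623 higher (33.4%) and 107 lower (0.774%) at 24 h. At 48 h it called 10 members higher (background 11.5%) and 13 lower (background 26.2%), against 6 and 11 with loess. The log ratios as deposited gave 0 members higher (background 8.08%) and 2 lower (background 6.97%) at 6 h. At 48 h they gave 4 higher, or 10.5% (background 22.2%), and 13 lower, or 34.2% (background 21.2%). The share called higher at 48 h was thus under its background with the deposited log ratios, near it with loess and above it with median centring, while the share called lower lay above it in all 3. Scaling between arrays gave 5 higher, or 13.2% (background 12.6%), and 9 lower, or 23.7% (background 14.5%), at 48 h. Those calls were without Pdia6 (0.58), Dnajc3 (-0.54) and Herpud1 (-0.54), which fell under the fold threshold.

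**Figure D1:**
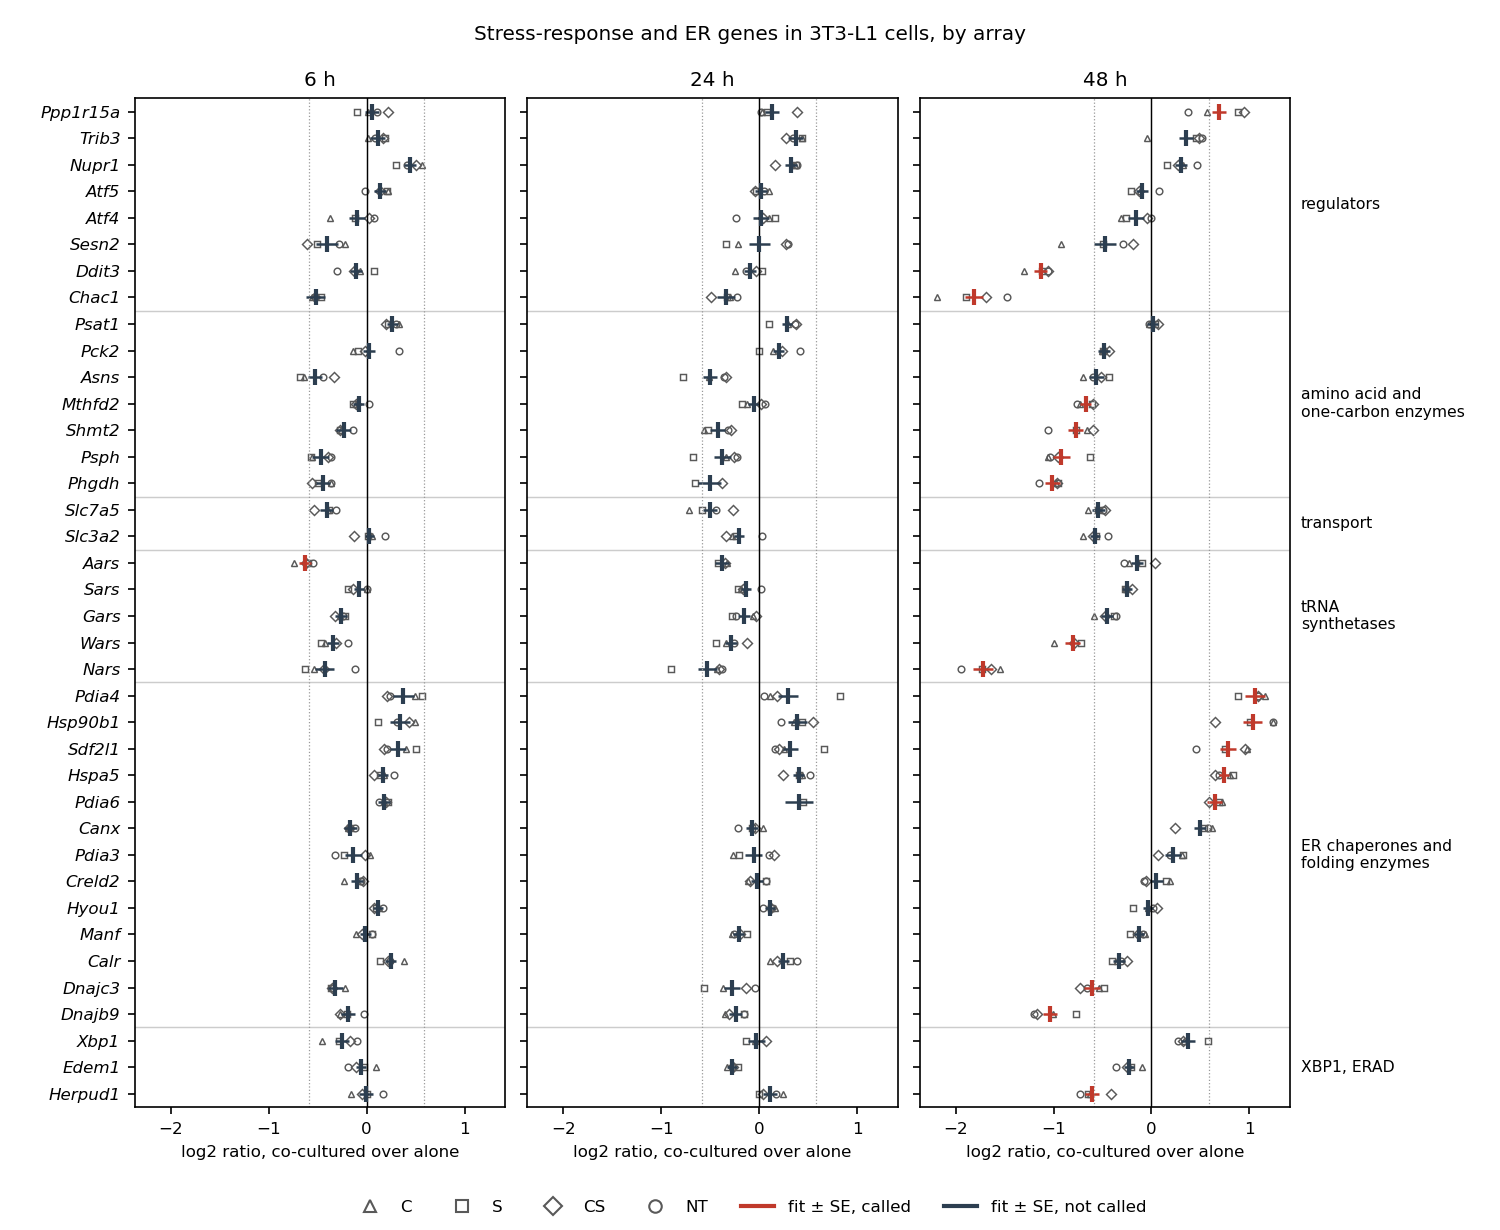
Log2 ratio of co-cultured over alone for the 38 genes (rows, by role) at 6, 24 and 48 h (panels). Open symbols are single arrays by treatment, vertical marks the fitted mean with its SE, red where called, and dotted lines mark 1.5-fold; there is 1 called gene in the left panel, 0 in the middle and 17 in the right, with Chac1 at -1.81 and Pdia4 at 1.05 as the ends of the range.

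Among the regulators, the transcript of Atf4 itself was called at no time with loess. Its log2 ratio was -0.38 (C), -0.12 (S), 0.023 (CS) and 0.077 (NT) at 6 h. It was 0.10 (C), 0.16 (S), 0.036 (CS) and -0.24 (NT) at 24 h. At 48 h it was -0.31 (C), -0.26 (S), -0.05 (CS) and -0.0023 (NT). All 4 values lay below 0 at 48 h, and the fitted mean of -0.16 ± 0.083 (SE) was not called (limma adjusted p = 0.11). A second probe of Atf4 gave -0.71 at 48 h, between -0.77 and -0.62 on the 4 arrays, so the 2 probes of this gene differed. Atf5, a related factor under the same translational control, had log2 ratios of 0.13, 0.02 and -0.095 at 6, 24 and 48 h.

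Ddit3, which encodes the pro-apoptotic factor CHOP, fell at 48 h only. Its log2 ratio was -0.072 (C), 0.077 (S), -0.13 (CS) and -0.30 (NT) at 6 h. It was -0.24 (C), 0.03 (S), -0.03 (CS) and -0.13 (NT) at 24 h. The 48 h values were -1.30 (C), -1.11 (S), -1.06 (CS) and -1.06 (NT). None of the 48 h values overlapped those of either earlier time. Ddit3 was 2.19-fold lower in co-cultured cells at 48 h (log2 -1.13 ± 0.063, limma adjusted p = 5.0e-08). The ratio at 48 h lay below that at 24 h by a log2 difference of -1.04 (adjusted p = 7.6e-06).

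Chac1, a target of CHOP and ATF4 that degrades glutathione, had the largest change of the 38. Its log2 ratio was -0.56 (C), -0.47 (S), -0.53 (CS) and -0.53 (NT) at 6 h. It was -0.30 (C), -0.32 (S), -0.49 (CS) and -0.22 (NT) at 24 h. At 48 h it was -2.19 (C), -1.89 (S), -1.69 (CS) and -1.48 (NT). With loess, every array gave a lower level in co-cultured cells, and the 48 h values stood apart from all earlier ones. The fold at 48 h was 3.51 lower (log2 -1.81 ± 0.093, adjusted p = 3.3e-08 by limma). With median centring and no loess the log2 ratio was 0.60 at 6 h, 0.97 at 24 h and -1.63 at 48 h. At 6 h, in the CS array, the level of Chac1 was low in both cultures, at 14.13 in co-cultured cells and 14.66 in cells alone, while the other 3 arrays lay between 15.35 and 15.45 in co-cultured cells and between 15.91 and 15.94 in cells alone.

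Trib3, a pseudokinase and another target of CHOP, did not follow Ddit3 and Chac1. Its log2 ratio was 0.014 (C), 0.19 (S), 0.17 (CS) and 0.085 (NT) at 6 h. It was 0.44 (C), 0.44 (S), 0.27 (CS) and 0.34 (NT) at 24 h. The 48 h values were -0.049 (C), 0.46 (S), 0.48 (CS) and 0.52 (NT), so that the C array was the single one below 0. The fitted ratios of 0.11, 0.37 and 0.35 stayed under 1.5-fold with loess (adjusted p = 0.23, 0.0021 and 0.0014, limma). With median centring and no loess the ratios of Trib3 were 1.39, 1.72 and 0.82. Among the rest of the regulators, Ppp1r15a (GADD34), which restores translation by leading a phosphatase to eIF2α, rose 1.62-fold at 48 h (log2 0.69 ± 0.072, adjusted p = 4.6e-06 by limma). Its values at 48 h were 0.57 (C), 0.89 (S), 0.94 (CS) and 0.38 (NT). Nupr1, a small stress-induced chromatin protein, had ratios of 0.45, 0.33 and 0.30 and lay above 0 on all 12 arrays, and was not called. Sesn2, a leucine sensor that restrains mTORC1, had ratios of -0.40, 0.0028 and -0.47, with 48 h values spread between -0.92 and -0.19.

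Among the enzymes that make amino acids and one-carbon units, the lowest ratios at 48 h were those of serine and mitochondrial folate metabolism. Of the 7 enzymes, which include Asns, 4 were called lower and 0 higher (background 16.9% and 14.6%), and the median log2 ratio of the 7 was -0.67, against -0.014 for all genes. Phgdh, the first enzyme of serine synthesis, was 2.02-fold lower (log2 -1.01 ± 0.075, adjusted p = 1.6e-06, limma). Its values were -0.36 (C), -0.50 (S), -0.56 (CS) and -0.36 (NT) at 6 h. At 24 h, where the spots of 2 arrays were left out, they were -0.66 (S) and -0.38 (CS). At 48 h they were -0.97 (C), -0.96 (S), -0.97 (CS) and -1.15 (NT), all below the earlier ones. Psph, the last enzyme of that path, was 1.89-fold lower at 48 h (log2 -0.92, adjusted p = 3.1e-06 by limma), and its second probe gave -1.55. Shmt2, which splits serine into glycine and a one-carbon unit in mitochondria, was 1.71-fold lower (log2 -0.77). Mthfd2, the next mitochondrial folate enzyme, was 1.59-fold lower (log2 -0.67). Psat1, the middle enzyme of serine synthesis, stood apart, with a ratio of 0.012 at 48 h and values between -0.027 and 0.067. Pck2, the mitochondrial PEP carboxykinase, had -0.48 at 48 h and was not called, though its ratio at 48 h lay below that at 24 h by a log2 difference of -0.68 (adjusted p = 7.4e-05 by limma).

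Asns, which makes asparagine and is the standard readout of amino acid shortage, was low at all 3 times with loess and called at none. Its log2 ratio was -0.64 (C), -0.68 (S), -0.34 (CS) and -0.44 (NT) at 6 h. It was -0.51 (C), -0.78 (S), -0.34 (CS) and -0.36 (NT) at 24 h. At 48 h it was -0.70 (C), -0.43 (S), -0.51 (CS) and -0.60 (NT). The ranges of the 3 times overlapped, and the fitted means of -0.53, -0.50 and -0.56 lay just under the fold threshold, at 1.44-fold, 1.41-fold and 1.48-fold lower. Slc7a5 and Slc3a2, the light and heavy chains of the LAT1 transporter for large neutral amino acids, had 48 h ratios of -0.54 and -0.58, again just under 1.5-fold. The ratio of Slc3a2 at 48 h lay below that at 6 h by a log2 difference of -0.60 (adjusted p = 3.7e-05 by limma).

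The transfer RNA synthetases load each amino acid onto its transfer RNA. Of the 5, 1 was called lower at 6 h (background 5.26%), 0 were called at 24 h and 2 were called lower at 48 h (background 16.9%). Their median log2 ratio at 48 h was -0.45 with loess. With median centring and no loess only Nars (-2.07) and Wars (-0.78) lay below 0 at 48 h. Aars then had 0.073, Gars 0.23 and Sars 0.14, beside -0.16 for all genes. Aars (alanine) was the single gene called at 6 h, 1.54-fold lower (log2 -0.63 ± 0.061, adjusted p = 4.4e-05, limma), with values of -0.74 (C), -0.60 (S), -0.62 (CS) and -0.54 (NT). At 24 h it had -0.33 (C), -0.42 (S) and -0.35 (CS), with the NT spot left out. At 48 h it had -0.23 (C), -0.097 (S), 0.04 (CS) and -0.28 (NT). Its 6 h and 48 h values did not overlap, and the 6 h call turned to a log2 ratio of 0.44 with median centring and no loess.

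Nars (asparagine) had the largest change of the 5. Its log2 ratio was -0.53 (C), -0.63 (S), -0.44 (CS) and -0.11 (NT) at 6 h. It was -0.43 (C), -0.90 (S), -0.41 (CS) and -0.38 (NT) at 24 h. The 48 h values were -1.55 (C), -1.73 (S), -1.64 (CS) and -1.94 (NT), apart from every earlier value. Nars was 3.29-fold lower at 48 h (log2 -1.72 ± 0.10, adjusted p = 6.6e-08 by limma). Wars (tryptophan) had -0.42 (C), -0.47 (S), -0.31 (CS) and -0.19 (NT) at 6 h. At 24 h it had -0.34 (C), -0.44 (S), -0.12 (CS) and -0.25 (NT). It was called at 48 h at 1.75-fold lower, with -1.0 (C), -0.72 (S) and -0.79 (CS) on the 3 arrays that kept its spot (adjusted p = 5.0e-06, limma).

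Gars (glycine) and Sars (serine) moved less. Gars had log2 ratios of -0.27 (C), -0.23 (S), -0.32 (CS) and -0.24 (NT) at 6 h. It had -0.063 (C), -0.27 (S), -0.035 (CS) and -0.24 (NT) at 24 h, and -0.59 (C), -0.38 (S), -0.47 (CS) and -0.37 (NT) at 48 h. The 48 h mean of -0.45 was the lowest of the 3 and was not called. Sars had 0.00048 (C), -0.19 (S), -0.14 (CS) and 0.0033 (NT) at 6 h. It had -0.18 (C), -0.22 (S), -0.16 (CS) and 0.02 (NT) at 24 h, and -0.26 (C), -0.27 (S), -0.20 (CS) and -0.26 (NT) at 48 h. Its fitted ratio never passed 1.19-fold.

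Among the 13 chaperones and folding enzymes of the ER, 5 were called higher and 2 lower in co-culture over alone at 48 h (background 14.6% and 16.9%). Their median log2 ratio was 0.22. Hspa5 (BiP), the HSP70 of the ER, had log2 ratios of 0.17 (C), 0.14 (S), 0.078 (CS) and 0.28 (NT) at 6 h. It had 0.44 (C), 0.41 (S), 0.24 (CS) and 0.53 (NT) at 24 h, and 0.80 (C), 0.83 (S), 0.65 (CS) and 0.69 (NT) at 48 h. It was higher in co-cultured cells on all 12 arrays, and the 48 h values did not overlap those of earlier times. Hspa5 was 1.67-fold higher at 48 h (log2 0.74 ± 0.053, adjusted p = 2.6e-07, limma). The deposited log ratios put it at 0.57, under the fold threshold, and median centring without loess at 1.26.

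Hsp90b1 (GRP94), the HSP90 of the ER, had 0.50 (C), 0.12 (S), 0.44 (CS) and 0.31 (NT) at 6 h. It had 0.35 (C), 0.43 (S), 0.55 (CS) and 0.23 (NT) at 24 h, and 1.24 (C), 1.01 (S), 0.65 (CS) and 1.24 (NT) at 48 h. The CS array was the lowest at 48 h and still above all earlier values. Hsp90b1 was 2.05-fold higher at 48 h (log2 1.04 ± 0.098, adjusted p = 2.3e-06 by limma). Pdia4 (ERp72), a disulphide isomerase, had 0.49 (C), 0.57 (S), 0.21 (CS) and 0.24 (NT) at 6 h. It had 0.11 (C), 0.83 (S), 0.19 (CS) and 0.049 (NT) at 24 h, and 1.15 (C), 0.88 (S), 1.09 (CS) and 1.08 (NT) at 48 h. The 24 h value of the S array, whose hormone label was in doubt, came close to the 48 h values. Pdia4 was 2.08-fold higher at 48 h (log2 1.05 ± 0.10, adjusted p = 3.0e-06 by limma).

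Sdf2l1, a partner of the BiP cofactor ERdj3, was 1.72-fold higher at 48 h (log2 0.78, adjusted p = 4.6e-06, limma), with 0.97 (C), 0.75 (S), 0.95 (CS) and 0.45 (NT). With median centring and no loess it was 0.39 and not called. Pdia6, a disulphide isomerase that binds BiP, was called at 1.57-fold higher on 3 arrays, and was under the fold threshold with the deposited log ratios (0.50) and with scaling between arrays (0.58). Its second probe gave the opposite sign at 48 h, a log2 ratio of -0.55 with values between -0.72 and -0.40, and the mean of both probes was -0.11. The 2 probes of Pdia6 thus give opposite directions. The lectin chaperones Canx and Calr, which hold glycoproteins during folding, had 48 h ratios of 0.49 and -0.33, and Pdia3, the isomerase that works with them, had 0.22. None of these 3 was called at 48 h. Creld2, Manf and Hyou1, all known as ER stress targets, had 0.051, -0.13 and -0.037 at 48 h and were not called. Hyou1 was well above background on 8 of 12 arrays in Cy5 and 6 in Cy3.

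Both J-domain partners of BiP on the list were called lower at 48 h, and each lost the call under some setting. Dnajb9 (ERdj4) had log2 ratios of -0.27 (C), -0.20 (S), -0.27 (CS) and -0.03 (NT) at 6 h. It had -0.35 (C), -0.15 (S), -0.31 (CS) and -0.15 (NT) at 24 h, and -1.01 (C), -0.77 (S), -1.17 (CS) and -1.20 (NT) at 48 h. All 12 values lay below 0 with loess, with the 48 h values apart from the rest. With median centring and no loess the ratio was 0.17 at 6 h, 0.30 at 24 h and -1.41 at 48 h. Dnajb9 was 2.05-fold lower at 48 h (log2 -1.04 ± 0.069, adjusted p = 1.6e-07 by limma). Its second probe gave 0.069 at 6 h, -0.077 at 24 h and -0.11 at 48 h. With the mean of both probes the 48 h ratio was -0.57 and not called. Dnajc3 (p58IPK), which binds BiP and restrains the kinase PERK, was 1.52-fold lower (log2 -0.60, adjusted p = 3.5e-05, limma). Without the NT array or the CS array of 48 h it fell under the fold threshold, at -0.55 and -0.54, as it did with scaling between arrays (-0.54).

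Of the remaining ER genes, Herpud1, a scaffold of ER-associated degradation, was 1.52-fold lower at 48 h (log2 -0.60, adjusted p = 1.2e-05 by limma), and -0.52 without the NT array of 48 h. It was also under the fold threshold with the deposited log ratios (-0.58), with median centring and no loess (-0.56), with scaling between arrays (-0.54) and with array quality weights (-0.57). Edem1, which sends misfolded glycoproteins to degradation, had -0.23 and was not called. Xbp1, the factor spliced by IRE1, had 0.38 at 48 h and was not called. Its ratio at 48 h exceeded that at 6 h by 0.63 on the log2 scale (adjusted p = 0.00046 by limma).

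The rule asked for the ATF4 arm to be set against the ER chaperones. At 48 h, 0 of 9 genes of the arm were called higher and 4 lower (Chac1, Nars, Ddit3 and Wars), while 5 of 13 chaperones were called higher and 2 lower. Over all genes 14.6% were called higher and 16.9% lower at that time, so that the lower calls among the chaperones were near the background. The median log2 ratio of the arm lay below that of the chaperones on each of the 12 arrays. At 6 h the arm's median was -0.47 to -0.24 over the 4 arrays and the chaperones' 0.078 to 0.13. At 24 h these were -0.32 to -0.16 and 0.058 to 0.14, and at 48 h -0.70 to -0.43 and 0.066 to 0.32. The difference, arm minus chaperones, was -0.47 ± 0.10 at 6 h, -0.35 ± 0.075 at 24 h and -0.73 ± 0.21 at 48 h (SD, n = 4 arrays). The median over all genes stayed between -0.03 and 0.018 on every array. Since the members were named with results known, the difference is a description and was given no test. With median centring and no loess both medians turned positive at the early times, to 0.54 and 0.83 at 6 h and to 0.82 and 0.83 at 24 h, beside 0.23 and 0.41 for all genes. The gap at 24 h was then -0.0071. At 48 h the arm had -0.31 and the chaperones 0.22 under that setting, beside -0.16 for all genes, so that the arm lay nearer to all genes than with loess.

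**Figure D2:**
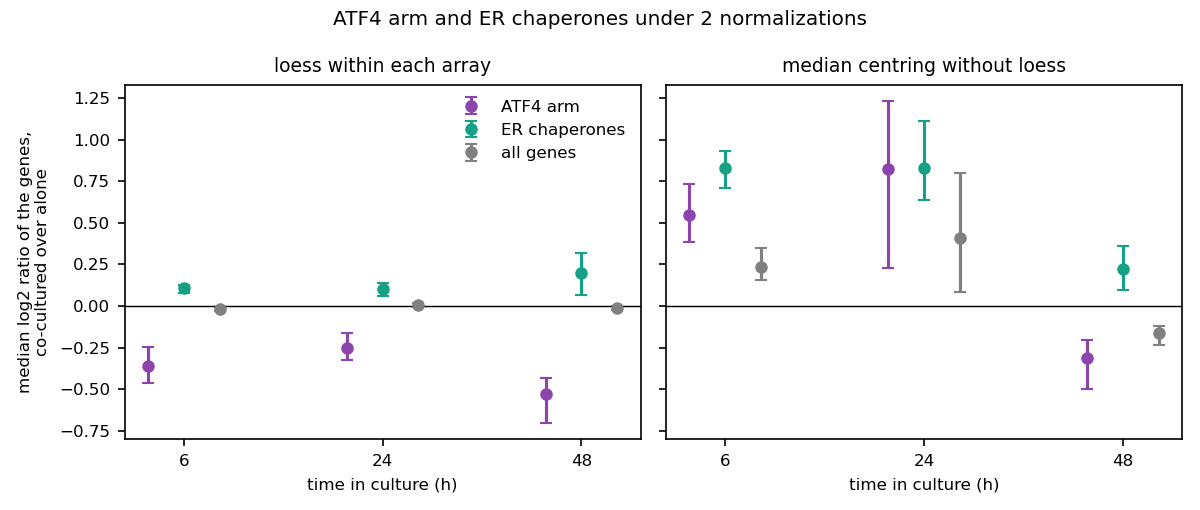
Median log2 ratio of the 9 genes of the ATF4 arm, the 13 ER chaperones and all genes tested, against time, with loess (left) and with median centring only (right). Points are means over the 4 arrays of a time and bars run between the lowest and highest array; the arm lies below the chaperones at 48 h in both panels, at -0.53 and 0.20 on the left.

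The next question was how the ratio moved with time, which a constant dye effect on a probe would not change. Between 24 h and 6 h, 0 members were called higher (background 1.71%) and 0 lower (background 0.672%), with 7 of 38 at an unadjusted p under 0.05 in limma. For 48 h against 24 h, 2 were called higher (background 9.38%), Hsp90b1 and Pdia4, and 7 lower (background 11.7%): Ddit3, Chac1, Mthfd2, Pck2, Nars, Dnajb9 and Herpud1. For 48 h against 6 h, 5 were called higher (background 12%), Ppp1r15a, Hsp90b1, Pdia4, Canx and Xbp1, and 7 lower (background 12.3%): Ddit3, Chac1, Mthfd2, Slc3a2, Nars, Dnajb9 and Herpud1. The lower calls, 18.4% of the members in both comparisons, lay above their background. The higher calls were 5.26% and 13.2% of the members, below their background in one comparison and near it in the other. The 3 genes with the largest falls between 6 h and 48 h were Chac1 (log2 difference -1.29 ± 0.13), Nars (-1.29 ± 0.14) and Ddit3 (-1.03 ± 0.089). Under median centring without loess the higher calls disappeared, with 0 higher and 29 lower for 48 h against 24 h and 0 higher and 27 lower for 48 h against 6 h. Over all genes that setting called 2.15% higher and 53% lower in the first comparison and 3.23% higher and 43.6% lower in the second, so the shift was not confined to the members. With the deposited log ratios 6 members were called lower for 48 h against 6 h, or 15.8% (background 16.4%), and that share no longer lay above its background. Scaling between arrays gave 4 lower in the same comparison, or 10.5% (background 9.88%), which was near its background. Without the 3 arrays of doubted label, 3 were called higher and 6 lower for 48 h against 6 h. Leaving out the S array of 48 h gave 3 higher calls in that comparison, and leaving out the NT array of 48 h gave 4 lower calls. Leaving out the NT array of 24 h gave 1 higher call for 48 h against 24 h.

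A ratio can move because either culture moved or because both did, so single-channel levels were read for each culture. These are log2 values after loess and quantile normalization of average intensity, and they compare 1 probe across cultures only. In co-cultured cells, 4 of 38 genes were called higher at 48 h than at 6 h (background 14.3%), Ppp1r15a, Hsp90b1, Pdia3 and Pdia4, and 7 lower (background 14.4%): Ddit3, Chac1, Phgdh, Slc3a2, Nars, Dnajb9 and Dnajc3. In cells alone, 1 was called higher (background 7.59%), Psph, and 2 lower (background 6.17%), Hspa5 and Pdia6. Some genes called in 1 culture moved the same way in the other. Between 6 h and 48 h Pdia3 went from 13.57 to 14.45 in co-cultured cells and from 13.71 to 14.23 in cells alone. Phgdh went from 15.58 to 14.59 and from 16.025 to 15.60, and Dnajc3 from 10.98 to 10.24 and from 11.30 to 10.85. Time and slide cannot be told apart in either culture. Without the 3 arrays of doubted label, 9 genes in all were called in co-cultured cells and 1 in cells alone. Without the S array of 6 h, or without the S array of 48 h, the count in cells alone was also 1.

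Chac1 was lower at 48 h than at the earlier times in the co-cultured cells. Its level there was 15.09 ± 0.64, 15.71 ± 0.059 and 14.02 ± 0.44 at 6, 24 and 48 h, against 15.61 ± 0.63, 16.05 ± 0.13 and 15.83 ± 0.21 in cells alone (SD, n = 4 arrays each). At 48 h the co-cultured values ran between 13.51 and 14.58 and did not overlap those of cells alone, which ran between 15.61 and 16.05. Ddit3 peaked at 24 h in both cultures, at 12.48, 13.27 and 11.86 in co-cultured cells and 12.58, 13.36 and 12.99 in cells alone. The cultures parted at 48 h, where the ranges were 11.62 to 12.04 and 12.74 to 13.09. Nars was 12.77, 12.44 and 11.18 in co-cultured cells and 13.20, 12.97 and 12.90 in cells alone, and its 48 h ranges did not overlap.

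The chaperones did not share 1 pattern. Hsp90b1 rose with time in co-cultured cells, with 15.65, 15.77 and 16.52, against 15.31, 15.38 and 15.48 in cells alone. Pdia4 had 12.31, 12.52 and 13.53 in co-cultured cells and 11.93, 12.22 and 12.47 in cells alone. Hspa5 had 16.78, 16.90 and 16.73 in co-cultured cells and 16.61, 16.50 and 15.99 in cells alone. Its higher ratio at 48 h thus came with a lower level in cells alone, by a log2 difference of -0.62 ± 0.089 between 48 h and 6 h (adjusted p = 0.00079, limma), and with -0.046 in co-cultured cells. Pdia6 had 17.03 at 6 h and 16.66 at 48 h in co-cultured cells, against 16.86 and 15.99 in cells alone. These levels are of its brighter probe, on 3 arrays at 48 h, and the other probe gave a ratio of opposite sign at 48 h (-0.55). Sdf2l1 had 11.58 and 11.68 in co-cultured cells at these times, against 11.26 and 10.90 in cells alone. Psph, lower in ratio at 48 h, had its called change in cells alone, where it was higher at 48 h than at 6 h by 0.81 ± 0.13 on the log2 scale (adjusted p = 0.0014 by limma). In co-cultured cells Psph had 13.31 at 6 h and 13.67 at 48 h. Shmt2 had 12.76 and 12.39 there, against 12.995 and 13.165 in cells alone. Mthfd2 had 11.82 and 11.50 in co-cultured cells, against 11.90 and 12.17 in cells alone. Ppp1r15a stood at 14.91, 15.70 and 15.60 in co-cultured cells and at 14.85, 15.57 and 14.91 in cells alone. It was thus highest at 24 h in both cultures, and at 48 h it lay close to its 24 h level in co-culture and 0.66 below it on the log2 scale in cells alone (adjusted p = 0.0081 by limma).

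**Figure D3:**
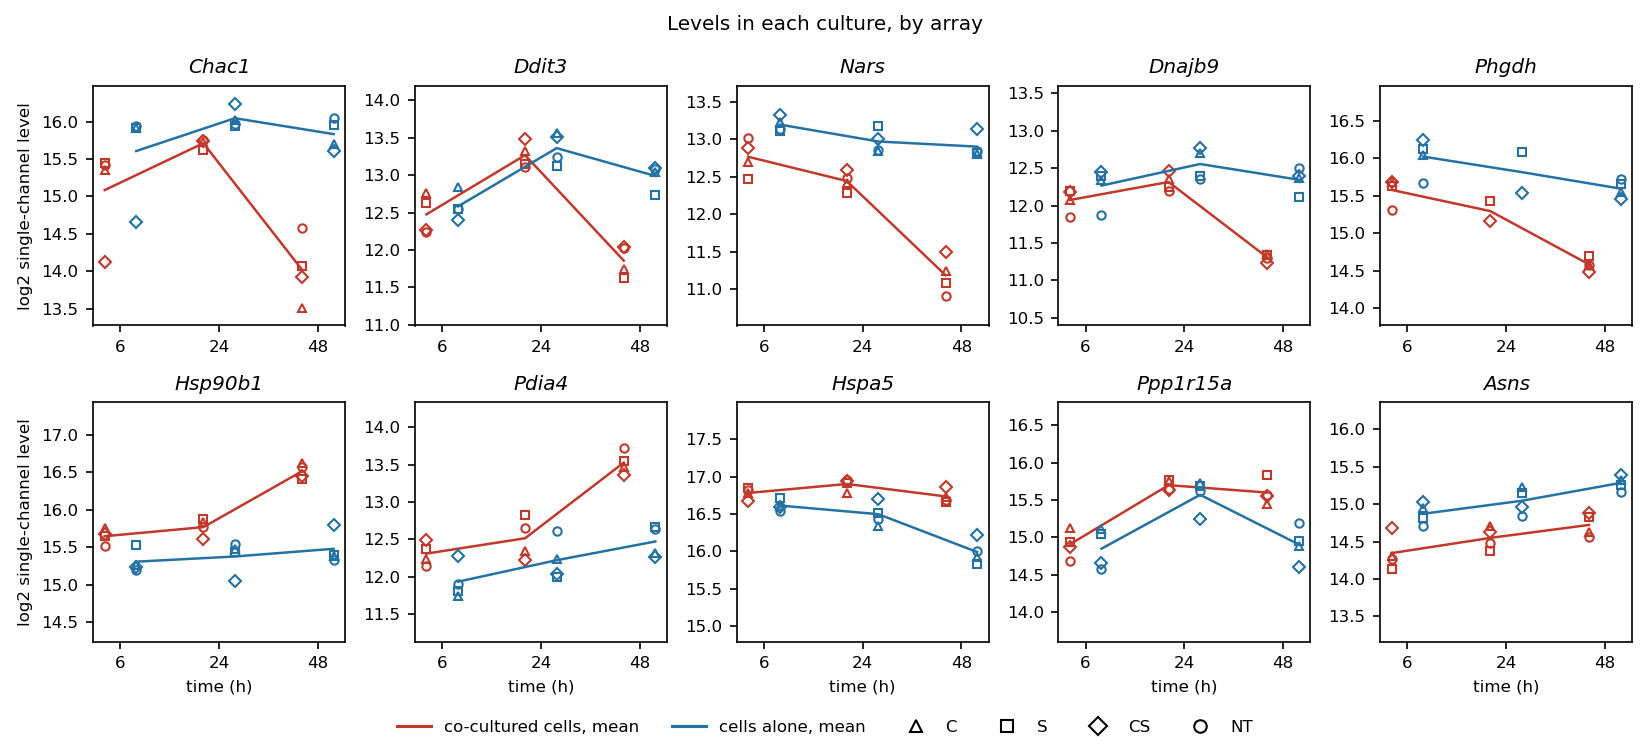
Log2 single-channel level of 10 of the genes against time in co-cultured cells (red) and in cells alone (blue), with 1 symbol for each array by treatment and lines through the means. At 48 h the co-cultured arrays of Chac1, Ddit3, Nars, Dnajb9 and Phgdh lie below the arrays of cells alone, and those of Hspa5, Hsp90b1 and Pdia4 above them.

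**Figure D4:**
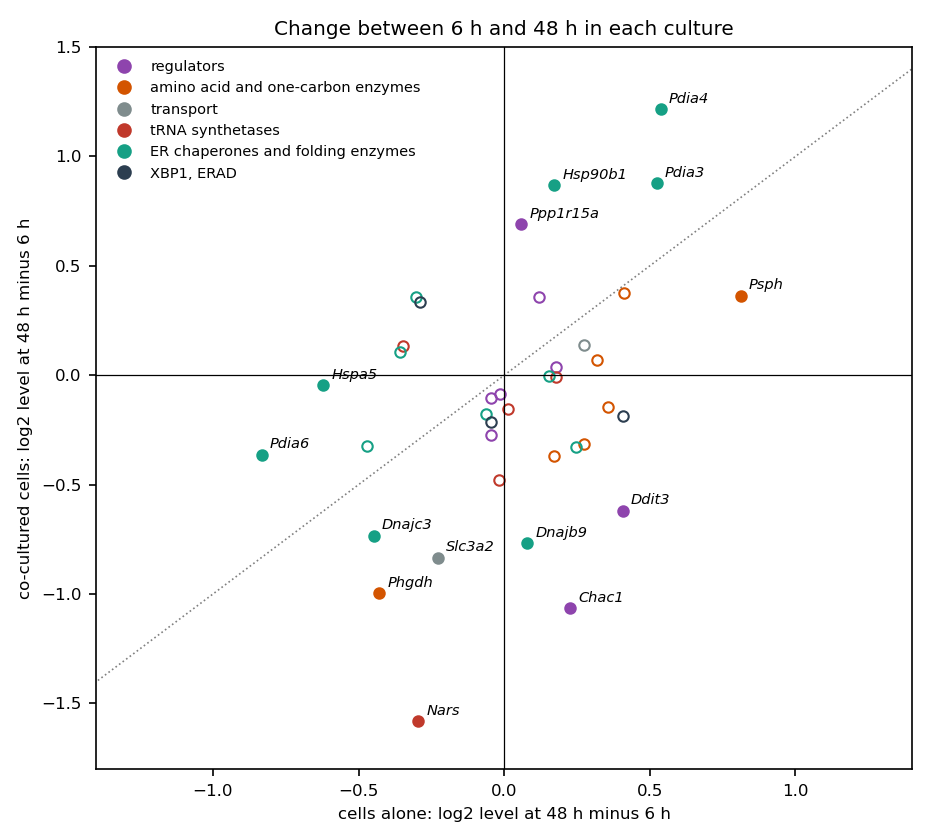
Log2 change between 6 h and 48 h in co-cultured cells (vertical axis) against that in cells alone (horizontal axis) for the 38 genes, coloured by role and filled and named where called in either culture. The dotted line marks equal change; Nars lies lowest at -1.58 and Pdia4 highest at 1.22 on the vertical axis.

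A further question was whether the hormones altered these genes. By Zbtb16, cells alone went against their hormone label on the S arrays of 6 h and 24 h and on the CS array of 24 h. Contrasts of S and CS in the ratio and in cells alone may thus mix hormone states. An absence of calls in them cannot show that a hormone had no effect. No member was called in the co-culture ratio with C, S or CS against NT, where 0% of all genes were called in each case. At an unadjusted p under 0.05 in limma there were 2 of 38 members with C, 3 with S and 2 with CS. In co-cultured cells, 0 members were called with C (background 1.97%) and 0 with S (background 0%). With CS there was 1 (background 3.83%), Pdia3, which was higher by 0.76 ± 0.13 on the log2 scale (adjusted p = 0.011 by limma). In cells alone, 0 were called with C (background 0.26%), 0 with S (background 0%) and 1 with CS (background 1.5%), again Pdia3, by 0.68 ± 0.13 (adjusted p = 0.034, limma). At an unadjusted p under 0.05 there were 6, 2 and 8 members with C, S and CS in co-cultured cells and 7, 3 and 7 in cells alone. Both calls of Pdia3 were lost without the 3 arrays of doubted label, and that in co-cultured cells also without the CS array of 24 h alone. The call in cells alone was lost on leaving out any of 10 of the 12 arrays.

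Other genes of the same pathways, listed by function, were read alongside. The counts at 48 h are to be read against 14.6% of all genes called higher and 16.9% lower, those at 6 h against 4.4% and 5.26%, and those at 24 h against 4.69% and 3.7%. The genes named for 6 h and 24 h were picked after their values were seen. Of 27 other genes of the ATF4 and amino acid response tested, 4 were called higher and 0 lower at 6 h, namely the cystine transporter Slc7a11 (log2 1.18), the mTORC1 inhibitor Ddit4 (0.89), Cebpb (0.73), a bZIP partner of ATF4 and CHOP, and the stress factor Atf3 (0.61). At 24 h, 4 were called higher and 0 lower, namely the folate enzymes Mthfd1l (0.65) and Aldh1l2 (0.63), Stbd1 (0.65), which binds glycogen, and the lipoprotein receptor Vldlr (0.59). At both early times these calls were all higher, whereas the single early call among the members, Aars, was lower. At 48 h, 2 were called higher and 4 lower, with a median of -0.076, and both shares were under their background. The higher ones were Cebpb (1.95) and the cationic amino acid transporter Slc7a3 (0.90). The lowest were Cth (-1.84), which makes cysteine, the glutamine transporter Slc1a5 (-1.21) and the alanine aminotransferase Gpt2 (-0.85).

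Of 15 other cytosolic synthetases, 0 were called at 6 h and 24 h. At 48 h 1 was called higher, Dars (log2 0.61), and 2 lower, Farsb (-1.07) and Iars (-0.91), with a median of -0.36, against -0.014 for all genes. Of 27 other genes of ER folding, secretion and degradation, the ER oxidase Ero1a was called higher at 6 h (1.35), 24 h (1.12) and 48 h (0.98). P4hb, which encodes the main disulphide isomerase, was called higher at 24 h (0.63, on 3 arrays) and 48 h (0.95), and Wfs1, an ER membrane protein, lower at 6 h (-0.60). At 48 h 5 of the 27 were called higher (background 14.6%) and 2 lower (background 16.9%), with a median of 0.18. The highest was the thioredoxin-domain gene Txndc11 (1.34), ahead of Ero1a and P4hb. The lowest were Derl2 (-1.10) and Sel1l (-1.04), both of the channel for ER-associated degradation. Among 14 sensors and translation regulators, Creb3 (-0.70) and Eif2s1 (-0.63), the eIF2α gene, were called lower at 6 h and 0 were called at 24 h. At 48 h 3 were called higher, Eif2ak3 (PERK, 0.95), Eif2ak1 (0.68) and Creb3l2 (0.63). Eif2ak2 (PKR, -1.14) and Atf6 (-0.75) were called lower.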

How the data were processed

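RNA from 12 pairs of 3T3-L1 cultures was hybridised to 2-colour Agilent mouse arrays. The deposited scanner files hold median spot and local background intensity for each dye as the authors' Agilent Feature Extraction wrote them (version 10.5.1.1 in the submitters' processing notes, 10.7.3.1 in the file headers). The authors' log10 ratios of Cy5 over Cy3, also deposited as a value table, were background-subtracted and dye-normalized and were used as an alternative. The array design follows mouse build mm9.

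Median intensities were corrected with normexp (offset 50) and loess within each array in limma 3.58.1 under R 4.3.3, with a mean-variance trend in the fit. Spots marked as outliers, or with a local background over 5 times the median of their array, were left out. Of 39429 probes, 27508 had a RefSeq name (GRCm38.p6). A gene was tested if a probe was well above background on at least 3 arrays in either dye, and the brightest such probe stood for it, which left 13831 genes, 13024 of them with a value on every array. Ratios were fitted on treatment and time (6 residual degrees of freedom), single channels likewise after quantile normalization of average intensity. A call needed a Benjamini-Hochberg adjusted p under 0.05 over all genes and a 1.5-fold change. The precision is limited by the number of arrays. P-values measure only the spread between these arrays, since no label names separate cultures.

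The genes named with values on every array were those called with at least 2-fold change at any time, with Hspa5, Atf4, Ddit3, Trib3, Chac1, Asns and the transfer RNA synthetases. Of the other lists, the 3 highest and 3 lowest called at 48 h were named. The members and lists were chosen with earlier results of these data known. The fits were tested on simulated data. Alternatives covered background correction, normalization, filters, thresholds, probe choice, array weights and leaving out arrays.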

Additional observations from a re-analysis of the deposited data

Results flagged for a closer look

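The co-culture ratio of 9 members differed between 48 h and 24 h in limma, after adjustment over all genes and at 1.5-fold or more, which singled them out. The log2 difference, 48 h minus 24 h, was -1.48 for Chac1, -1.19 for Nars, -1.04 for Ddit3, -0.80 for Dnajb9, -0.72 for Herpud1, -0.68 for Pck2, -0.62 for Mthfd2, 0.64 for Hsp90b1 and 0.76 for Pdia4. Between 48 h and 6 h, 12 members differed in the same way. The log2 difference, 48 h minus 6 h, was -1.29 for Chac1, -1.29 for Nars, -1.03 for Ddit3, -0.85 for Dnajb9, -0.60 for Slc3a2, -0.60 for Herpud1, -0.59 for Mthfd2, 0.63 for Ppp1r15a, 0.63 for Xbp1, 0.66 for Canx, 0.68 for Pdia4 and 0.70 for Hsp90b1. Slide and time cannot be told apart in either comparison, and with median centring and no loess none of the positive differences was called. The second probe of Dnajb9 changed little with time, at 0.069, -0.077 and -0.11 at 6, 24 and 48 h.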

How the results depend on the processing

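A fit on mean spot signals was not run, since only median signals were used here. Single-gene values were compared for the 18 calls at 6 h and 48 h only. Among 440 such values under up to 25 alternatives, 414 kept their direction and their side of the threshold. Of the rest, 24 lost the call, 11 of them by the 2-fold threshold itself, and 2 changed sign. Those were Aars at 6 h, at 0.44 with median centring and no loess, and Pdia6 at 48 h, at -0.11 with the mean of all its probes (limma adjusted p = 0.38). Values that were not called lie outside this count, and some changed sign with median centring and no loess. Examples are Chac1 at 6 h (0.60), Asns at 6 h (0.39) and Gars at 48 h (0.23).

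With median centring and no loess, 22 members were called at 6 h, 25 at 24 h and 10 higher at 48 h, with 0 higher and 29 lower for 48 h against 24 h and 0 higher and 27 lower for 48 h against 6 h. The gap between the arms was then -0.29 at 6 h and -0.0071 at 24 h. With the deposited log ratios, 2 members were called at 6 h, and the gap was -0.47 at 24 h and -0.95 at 48 h. Over all genes, the deposited log ratios called 1406 higher and 712 lower at 24 h, against 648 and 512. Scaling between arrays gave 5 higher (background 12.6%) and 9 lower (background 14.5%) at 48 h. It gave 1 higher for 48 h against 24 h (background 7.27%). For 48 h against 6 h it gave 2 higher (background 10.2%) and 4 lower (background 9.88%). A 2-fold threshold gave 0 calls at 6 h, 2 higher and 5 lower at 48 h, 0 higher and 3 lower for 48 h against 24 h, and 0 higher and 3 lower for 48 h against 6 h. No fold threshold gave 23 at 6 h, 25 at 24 h, 11 higher and 21 lower at 48 h, 7 higher and 17 lower for 48 h against 24 h, and 10 higher and 15 lower for 48 h against 6 h. The cause of these shifts was not tested. The share over all genes was not counted for the 2-fold threshold or for fits without some arrays. Nor was it counted for time differences with no fold threshold. Those counts describe the members only and have no background to be read against.

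Without the 3 arrays of doubted hormone label there was 1 call at 24 h, 3 higher for 48 h against 6 h, 1 in cells alone for 48 h against 6 h, and 0 with CS in co-cultured cells and in cells alone. Leaving out 1 array at a time gave 0 to 2 calls at 24 h, with 2 in the absence of the CS array of that time, Phgdh (-0.66) and Slc7a5 (-0.59). The value of Phgdh then rested on the S array of 24 h alone, whose label was in doubt. For Slc7a5 the second probe gave -0.20 at 24 h with all arrays kept. It gave 5 to 6 higher and 9 to 13 lower at 48 h. It gave 1 to 3 higher for 48 h against 24 h, and 3 to 6 higher and 4 to 9 lower for 48 h against 6 h. In cells alone it gave 1 to 4 for 48 h against 6 h. With CS it gave 0 to 1 in co-cultured cells and 0 to 1 in cells alone. Hyou1, dim in both dyes, was not tested where every array had to be well above background.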
